A study of Mus musculus with 5 samples.

Results

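The nuclear oxidative phosphorylation (OXPHOS) genes were taken as every gene symbol that begins with Nduf followed by a, b, c, s or v and a digit, with Uqcr, with Cox and a digit of 4 to 8, or with Atp5, together with Sdha, Sdhb, Sdhc and Sdhd. Symbols of pseudogenes and of the mitochondrial chromosome were left out. This gave 86 of the 30099 symbols listed in the libraries, with 83 to 85 of them listed in each. By role, 37 belong to complex I, 4 to complex II, 8 to complex III, 20 to complex IV and 17 to complex V, with Ndufa4 and Ndufa4l2 placed in complex IV. The cells came from the femur marrow of Lepr-cre; R26R-tdTomato mice and were sorted for tdTomato. In these mice a Cre driven from the leptin receptor locus marks stromal cells. Each of 5 groups was 1 BD Rhapsody single-cell RNA library. The naive group was 15 weeks old and had 1 bone marrow ablation at 13 weeks, and the exhausted group was 15 weeks old with ablations at 9 and 13 weeks. The aged-injury group was 18 months old and 1 week past 1 ablation, the aged group was 18 months old and uninjured, and the control group was 15 weeks old and uninjured. The naive and exhausted cells were thus taken 2 weeks after their last surgery, against 1 week for aged-injury, and every group carried the same 2 alleles. The labels give neither the number of mice nor a batch.

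Oxidative phosphorylation is carried by a chain of enzyme complexes in the inner mitochondrial membrane. Complex I (NADH dehydrogenase) and complex II (succinate dehydrogenase) pass electrons to ubiquinone, complex III (cytochrome bc1) passes them on to cytochrome c, complex IV (cytochrome c oxidase) hands them to oxygen, and complex V (ATP synthase) uses the proton gradient to make ATP. Most subunits are encoded in the nucleus and a small core on the mitochondrial chromosome, and some complex IV subunits exist as alternative isoforms used in muscle, brown fat, lung or testis. In marrow stroma, reticular cells are known for Cxcl12 and Lepr and as a source of adipocytes and osteoblasts.

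After filtering, 5242 of 7480 naive, 6277 of 8603 exhausted, 19497 of 20867 aged-injury, 7560 of 9814 aged and 9253 of 11204 control cells were kept. Each kept cell was assigned to a class when at least 50% of that class's marker genes had at least 1 unique molecular identifier (UMI, 1 counted molecule). The reticular gate held 1739 naive, 1801 exhausted, 9182 aged-injury, 5248 aged and 4726 control cells. Over these cells Cxcl12 stood at 32515 CPM (UMIs per 1e+06 UMIs of the class), Lepr at 3369 CPM and Adipoq at 3864 CPM. The sort also let through blood cells, among them 1737 neutrophils, 1356 B-lineage and 1059 erythroid cells by their gates. In reticular cells the summed markers of B-lineage cells lay between 1.8 and 12.0 CPM, those of endothelial cells between 19.3 and 26.9 CPM and those of osteoblast-lineage cells between 3462 and 5371 CPM, so the reticular sums also carry osteoblast-lineage transcripts. Neutrophil markers ran from 42.3 CPM in aged to 190 in naive, and erythroid markers from 15.1 in aged-injury to 91.8 in control. Monocyte markers ran from 447 to 662 CPM, mostly Klf4, at 570 CPM over all reticular cells. The 8 adipocyte markers summed to 411 CPM in naive, 209 CPM in exhausted, 324 CPM in aged-injury, 72.9 CPM in aged and 100.3 CPM in control reticular cells, higher in all 3 ablated libraries, and their part in the differences between libraries was not tested. This sum was mostly Fabp4, at 191 CPM over all reticular cells. Acsl1 was at 25.1 and Plin1 at 4.62 CPM there, and Cidec, Gpd1, Thrsp, Pck1 and Plin4 were under 1 CPM. The mitochondrial limit of 25% was passed by 21.4% of naive, 15.3% of exhausted, 2.22% of aged-injury, 10.6% of aged and 6.01% of control cells, which were removed. Libraries shared at most 5 cell labels. Fewer molecules of a gene per cell and a different mix of cells inside a gate cannot be told apart in these sums.

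In reticular cells the nuclear OXPHOS transcripts took nearly the same share of all molecules in the 5 libraries. They made up 0.630% of UMIs in naive, 0.677% in exhausted cells, 0.628% in aged-injury, 0.601% in aged and 0.620% in control cells. The exhausted library was highest and the aged one lowest. The log2 ratio of the summed CPM, taken per molecule of the class, was 0.02 for naive over control (95% counting interval 0.01 to 0.03), 0.13 for exhausted over control (0.11 to 0.14), 0.10 for exhausted over naive (0.09 to 0.12), -0.04 for aged over control (-0.05 to -0.04) and 0.06 for aged-injury over aged (0.06 to 0.07). With 1 library per group there is no replicate error and no test, the intervals cover counting error only, and the comparisons share control, naive or aged cells. With the trimmed mean scaling (TMM) of edgeR the naive over control, aged over control and aged-injury over aged values became -0.15, 0.00 and -0.01, so their direction depends on the scaling.

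Each complex stayed close to this. Complex I was at 1836 CPM in naive, 2024 in exhausted cells, 1869 in aged-injury, 1794 in aged and 1838 in control cells. Complex II, the succinate dehydrogenase, was at 228 CPM in naive, 231 in exhausted cells, 235 in aged-injury, 214 in aged and 212 in control cells. The widest difference was in complex III, at 530 CPM in naive, 564 in exhausted cells, 565 in aged-injury, 465 in aged and 497 in control cells, a log2 ratio of 0.28 for aged-injury over aged (0.25 to 0.31). Complex IV gave a log2 ratio of -0.01 in that comparison (-0.02 to 0.01), and complex V one of 0.06 (0.05 to 0.07).

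The mitochondrially encoded subunits of the same complexes did not keep to the level of the nuclear ones. Their 13 genes took 8.60% of UMIs in naive, 8.06% in exhausted cells, 6.06% in aged-injury, 7.84% in aged and 6.78% in control reticular cells. The log2 ratio was 0.34 for naive over control, 0.25 for exhausted over control and 0.21 for aged over control, against -0.37 for aged-injury over aged. The molecules of mitochondrially encoded genes per molecule of nuclear members were 13.7 in naive, 11.9 in exhausted cells, 9.65 in aged-injury, 13.0 in aged and 10.9 in control cells. The share of cells removed for mitochondrial reads differed in the same libraries, as given above, and its part in this difference was not tested. The cytosolic ribosomal protein genes took 3.77% of UMIs in aged-injury and 2.86% in aged cells. The partners of the chain encoded outside the set, cytochrome c (Cycs), cytochrome c1 (Cyc1) and the acyl carrier protein Ndufab1, gave a summed log2 ratio of 0.23 for naive over control, 0.37 for exhausted over control, -0.01 for aged over control and 0.36 for aged-injury over aged. The citrate cycle genes gave 0.14, 0.09, -0.05 and 0.15 in the same order of comparisons.

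**Figure D1:**
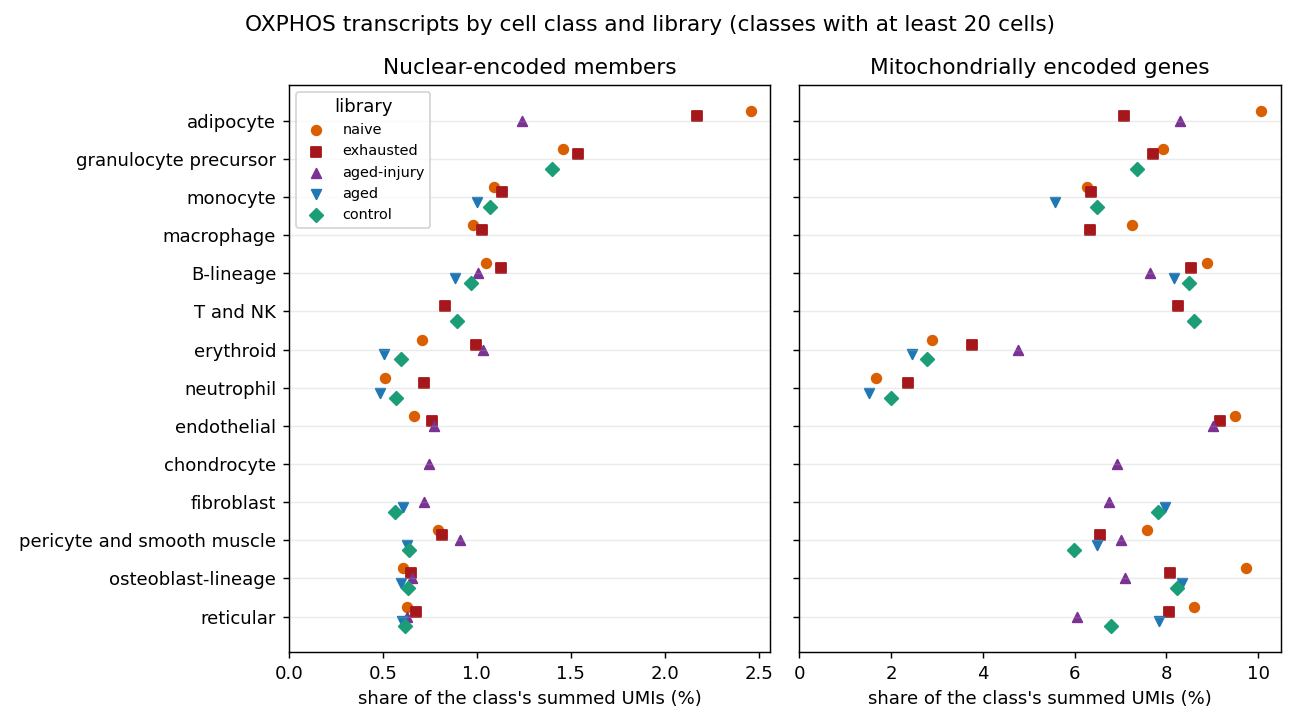
Each point is 1 library's share (%) of the summed UMIs of a cell class, for the 86 nuclear-encoded members (left) and the 13 mitochondrially encoded genes (right), in classes with at least 20 cells in that library. Reticular cells lie between 0.601% and 0.677% on the left in all 5 libraries, adipocyte-gated cells between 1.24% and 2.46%, and neutrophils and erythroid cells have the lowest shares on the right.

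Gene by gene, 73 members had a mean of at least 20 CPM over the 5 libraries and were compared; the other 13 are described with the isoforms. A ratio of at least 1.5 in either direction was reached by 0 of 73 members in each of the 5 comparisons. Among all 6470 genes compared, 15.6% passed for naive over control, 6.46% for exhausted over control, 4.67% for exhausted over naive, 2.81% for aged over control and 9.55% for aged-injury over aged. The median log2 ratio of the members was 0.04, 0.15, 0.12, -0.05 and 0.12 in these comparisons, beside 0.13, 0.08, -0.06, -0.02 and 0.12 over all genes. The members' log2 ratios had a standard deviation (SD) of 0.18, 0.14, 0.14, 0.08 and 0.25, beside 0.48, 0.35, 0.28, 0.24 and 0.45 over all genes.

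**Figure D2:**
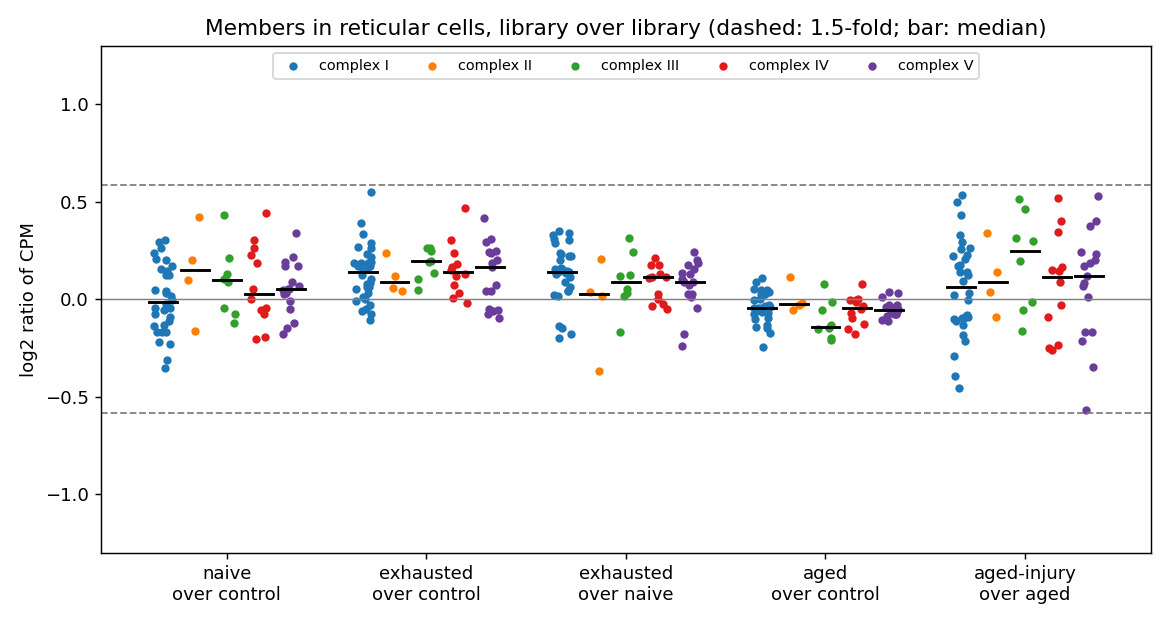
Each point is 1 of 73 members in reticular cells, as the log2 ratio of CPM (vertical axis) of the first over the second library named below it, coloured by complex, with the complex median as a bar. All points lie inside the dashed lines at 1.5-fold, and the widest spread, with an SD of 0.25, is in aged-injury over aged.

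The members with the largest ratios differed between comparisons. Cox5a, a nuclear core-associated subunit of complex IV, had 56.1 CPM in naive, 57.1 in exhausted cells and 41.2 CPM in control cells, a log2 ratio of 0.45 for naive over control and 0.47 for exhausted over control. For naive over control the next were the core protein Uqcrc1 of complex III at 0.43 and the iron-sulphur subunit Sdhb of complex II at 0.42, and the lowest were the complex I accessory subunits Ndufa5 at -0.35, Ndufb3 at -0.31 and Ndufb10 at -0.23. Ndufc1, an accessory subunit of complex I, was highest for exhausted over control at 0.55 and Atp5mpl, a small ATP synthase subunit, was at 0.42, with Ndufb3, Atp5j and Ndufb7 lowest at -0.11, -0.09 and -0.08. These values are all within 1.5-fold, and both sets share the control cells. For exhausted over naive the log2 ratios ran from -0.37 for Sdhb and -0.24 for Atp5j2 to 0.33 for Ndufa2, 0.34 for Ndufc1 and 0.35 for Ndufb8. For aged over control they ran from -0.25 for Ndufb5, -0.21 for Uqcrfs1 and -0.20 for Uqcrc2 to 0.09 for Ndufc1, 0.11 for Ndufa6 and 0.11 for Sdha.

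In the aged pair the ratios spread furthest. Ndufb10, an accessory subunit of the complex I membrane arm, had 76.3 CPM in aged-injury and 52.6 CPM in aged cells, with 43.4 in naive, 53.6 in exhausted cells and 50.8 in control cells. Atp5j2, subunit f of the ATP synthase, had 40.0 CPM in aged-injury and 59.3 CPM in aged cells, with 69.3 in naive, 58.6 in exhausted cells and 61.7 in control cells. The aged-injury library was thus the highest of the 5 for Ndufb10 and the lowest for Atp5j2. The log2 ratios of aged-injury over aged were 0.54 for Ndufb10 (ratio 1.45, 1.38 to 1.53), 0.53 for Atp5b, the catalytic beta subunit of ATP synthase, and 0.52 for Ndufa4, against -0.57 for Atp5j2 (ratio 0.675, 0.638 to 0.713), -0.46 for Ndufb8 and -0.39 for Ndufb7. With TMM scaling 1 member passed 1.5-fold in this comparison.

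The most counted members of each complex stayed within 1.5-fold in all 5 comparisons. Of complex I, Ndufa2 had 124 CPM in naive, 155 in exhausted cells, 109 in aged-injury, 133 in aged and 133 in control cells, and Ndufa7 and Ndufa1 lay between 95.6 and 120 CPM. Of complex II, the flavoprotein Sdha had 78.3 CPM in naive, 79.3 in exhausted cells, 87.0 in aged-injury, 79.0 in aged and 73.1 in control cells, and the iron-sulphur subunit Sdhb had 35.1 in naive against 25.8 to 27.3 in the other 4 libraries. The membrane anchors Sdhc and Sdhd went opposite ways in aged-injury, at 72.3 and 49.0 CPM in aged-injury, 57.2 and 52.3 in aged and 58.3 and 54.4 in control cells. Of complex III, the hinge protein Uqcrh had 174 CPM in naive, 181 in exhausted cells, 207 in aged-injury, 145 in aged and 151 in control cells, above both uninjured libraries in all 3 ablated ones. Uqcrb lay between 78.0 and 96.0 CPM and Uqcr11 between 61.9 and 79.8 CPM. Of complex IV, Cox6c lay between 220 and 252 CPM, Cox8a between 195 and 243 and Cox6a1 between 188 and 240. Of complex V, the c-ring gene Atp5g3 lay between 215 and 292 CPM, the catalytic alpha subunit Atp5a1 between 213 and 232 and Atp5l between 203 and 239.

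Across the 3 ablated and 2 uninjured libraries, 26 of 73 members were higher in every ablated library than in both uninjured ones, beside 35.6% of all genes compared. Among them were Atp5b, Cox5a, Cox7a2l, Sdhb, Uqcrc1 and Uqcrh. The opposite order was seen for 4 of 73, Atp5h, Cox6c, Ndufa5 and Ndufb7, against 9.66% of all genes. The share of members was the same as over all genes in the first direction and lower in the second, and with TMM scaling they became 8 and 8. The ablated libraries differ in age, time after surgery and number of surgeries, so they are not replicates.

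Among members too low for that comparison, the testis-type isoform Cox6b2 stood apart in the ablated libraries. It had 10.9 CPM in naive (124 UMIs), 13.4 in exhausted (156 UMIs), 10.5 in aged-injury (807 UMIs), 19.6 in aged (686 UMIs) and 22.4 CPM in control cells (812 UMIs). The 3 ablated libraries lay below both uninjured ones, with ratios of 0.486 for naive over control (0.399 to 0.588), 0.598 for exhausted over control (0.501 to 0.711) and 0.535 for aged-injury over aged (0.483 to 0.593). The hypoxia-responsive lung isoform Cox4i2 had 12.3 CPM in naive, 10.4 in exhausted cells, 8.55 in aged-injury, 13.5 in aged and 16.5 in control cells, again lower in the ablated libraries, with ratios of 0.741 for naive over control (0.612 to 0.892), 0.627 for exhausted over control (0.511 to 0.763) and 0.635 for aged-injury over aged (0.564 to 0.716). Ndufa4l2, the hypoxia-inducible relative of Ndufa4, had 4.99 CPM in naive, 5.74 in exhausted cells, 11.8 in aged-injury, 5.53 in aged and 6.77 in control cells, a ratio of 2.13 for aged-injury over aged (1.83 to 2.51). The remaining members under 20 CPM were Ndufa11, Ndufb2, Ndufs7 and Ndufs8, between 10.7 and 20.5 CPM in every library, and Cox6a2, Cox7a1, Cox7b2, Cox8b, Cox8c and Ndufb11b, each under 2 CPM in every library.

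Some cell classes lay well above reticular cells and others near them. Summed over reticular cells the members took at most 0.677% of UMIs, while in adipocyte-gated cells they took 2.46% in naive, 2.17% in exhausted cells and 1.24% in aged-injury. Granulocyte precursors followed, with 1.46% in naive, 1.54% in exhausted cells and 1.40% in control cells. Monocytes had 1.00% to 1.14%, macrophages 0.982% in naive and 1.03% in exhausted cells, and B-lineage cells 0.883% to 1.13%. Neutrophils, which are downstream of the granulocyte precursors, lay near the reticular level in these sums. They had 0.511% in naive, 0.718% in exhausted cells, 0.482% in aged and 0.569% in control cells. Such sums weight deep cells. By the median per cell, neutrophils of these libraries had only 0.435% to 0.451%, below the reticular medians of 0.525% to 0.623%. Osteoblast-lineage cells, at 0.597% to 0.654%, overlapped the reticular range. The aged and control libraries held 2 and 7 adipocyte-gated cells, too few to be used.

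The difference between classes was tested with edgeR's quasi-likelihood test on UMIs summed per library and class, with the library as a block, so that each class was compared with reticular cells of the same libraries. Calls are at a false discovery rate (FDR) of 0.05 with Benjamini-Hochberg adjustment over all genes tested. All these comparisons use the same reticular sums.

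In adipocyte-gated cells nearly the whole set was higher than in reticular cells. Of 82 members tested over 3 libraries, 76 rose and 0 fell, against 12.7% of all genes that rose and 14.3% that fell. The median log2 fold change of the 82 was 1.49, against -0.10 over all genes tested. Every tested member rose in complex II (4 of 4), complex III (8 of 8) and complex V (17 of 17), and 35 of 36 rose in complex I and 12 of 17 in complex IV. Without the exhausted library, which had 26 such cells, 24 members rose at a median of 1.46, and without the naive library 56 rose at 1.17.

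Atp5b, the catalytic beta subunit of ATP synthase, had 753 CPM in naive, 648 in exhausted cells and 338 in aged-injury adipocyte-gated cells, against 117, 103 and 126 CPM in the reticular cells of the same libraries. The class was higher in all 3 libraries and the ranges did not overlap, with a log2 fold change of 2.20 ± 0.34 (SE, edgeR adjusted p = 0.00054). Uqcr11, a small subunit of complex III, had 503, 386 and 191 CPM in adipocyte-gated cells, against 64.2, 79.8 and 61.9 CPM in reticular cells, a log2 fold change of 2.23 ± 0.32 (edgeR adjusted p = 0.000369). Ndufa12, an accessory subunit of complex I, had 359, 326 and 168 CPM in adipocyte-gated cells, against 53.1, 62.4 and 56.4 CPM in reticular cells. The smallest changes that still passed were Ndufa3 at 0.74 ± 0.25, Ndufs4 at 0.74 ± 0.25 and Atp5l at 0.88 ± 0.30. The 4 genes of succinate dehydrogenase, which also serves the citrate cycle, all rose, by log2 1.56 for Sdhb, 1.67 for Sdhc and 1.85 for Sdhd. Sdha had 282 CPM in naive, 322 in exhausted cells and 153 in aged-injury adipocyte-gated cells, against 78.3, 79.3 and 87.0 CPM in reticular cells.

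Of the 86 members Cox6a2, Cox7b2, Cox8c and Ndufb11b had too few counts to be tested. Of the 6 members that did not pass in adipocyte-gated cells, 4 were isoform genes of complex IV, with log2 fold changes of -1.20 for Cox4i2, -0.42 for Cox6b2, 1.53 for Cox7a1 and -0.06 for Ndufa4l2. The other two were Cox7a2l, which takes part in the assembly of respiratory supercomplexes, at 0.43 and Ndufb2 at 0.53. Cox8b, the isoform of muscle and brown fat, was counted in 31 UMIs of 2903532 in adipocyte-gated cells, at 13.7 CPM in naive, 24.8 in exhausted cells and 6.59 in aged-injury. In reticular cells of the same libraries it was counted in 1 UMI of 100203145, a ratio of 1070 with a counting interval of 178 to 43602. Its counterpart in most tissues, Cox8a, had 944 CPM in naive, 804 in exhausted cells and 408 in aged-injury adipocyte-gated cells, against 210, 243 and 195 CPM in reticular cells.

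Other genes of the pathway differed in how far they moved with the members. Cycs, Cyc1 and Ndufab1 all rose in adipocyte-gated cells, Cycs by log2 2.47 ± 0.33. Of the citrate cycle 12 of 13 genes rose, of the mitochondrial ribosome 56 of 77, of glycolysis 11 of 15 and of the assembly factors 18 of 44, and 0 fell in each list. Of the 11 regulators 4 rose, the coactivators Ppargc1a (1.85) and Ppargc1b (2.25), the nuclear receptor Esrra (1.18) and the mitochondrial transcription factor Tfb2m (1.34), while Nrf1 was at -0.60 and Gabpa at -0.09 without passing. Of the 13 mitochondrially encoded genes 0 were called in edgeR's test, with 0 at an unadjusted p under 0.05 (median log2 0.10). The sums behind this test weight deep cells. The median mitochondrial share per cell was 3.48% for exhausted and 3.85% for naive adipocyte-gated cells, below the reticular 8.01% and 8.57%. The aged-injury gate went the other way, at 7.35% against a reticular 5.33%. Of 81 cytosolic ribosomal genes 7 rose. Molecules of mitochondrially encoded genes per molecule of nuclear members were 4.09 in naive, 3.26 in exhausted cells and 6.67 in aged-injury adipocyte-gated cells, against 13.7, 11.9 and 9.65 in reticular cells.

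**Figure D3:**
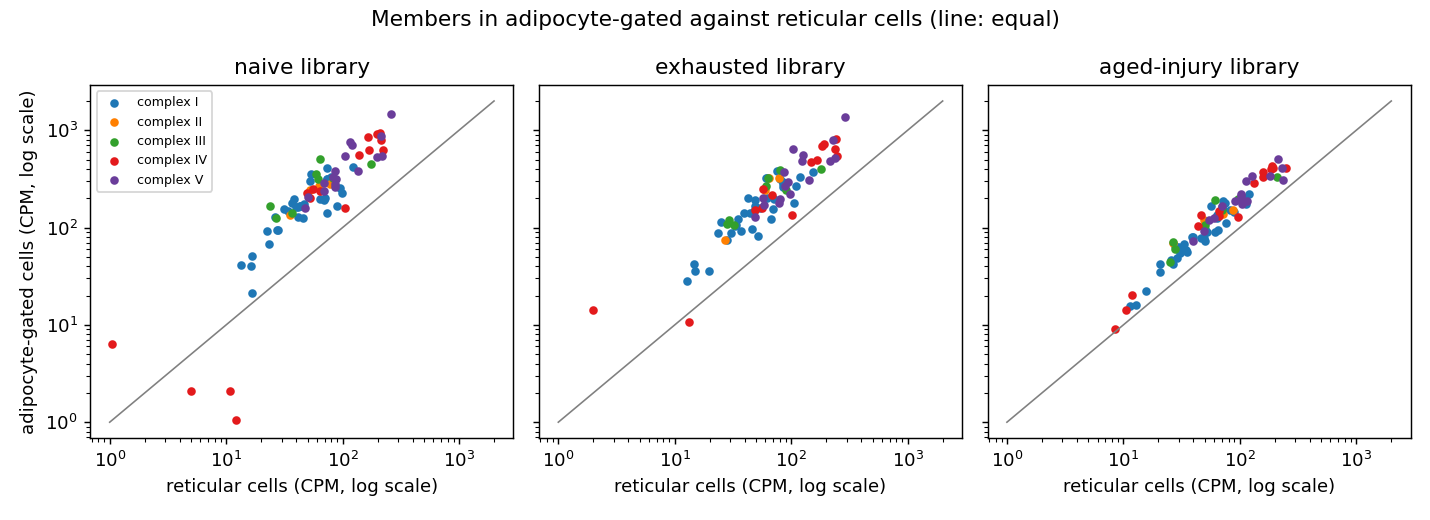
Each point is 1 member in 1 library, with its CPM in reticular cells on the horizontal axis and in adipocyte-gated cells on the vertical axis, both logarithmic, coloured by complex; members without UMIs in adipocyte-gated cells or under 1 CPM in reticular cells are not drawn. Almost all points lie above the line of equal levels in all 3 libraries, further above it in naive and exhausted than in aged-injury, and the few below it are complex IV isoforms.

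The aged-injury library gave the smallest difference, and its adipocyte gate was made up otherwise. The summed adipocyte markers stood at 33775 CPM in naive, 31432 in exhausted cells and 12391 in aged-injury cells of that gate, and the reticular marker Cxcl12 at 2255, 11124 and 13402 CPM. Of the gated cells, 50 of 94 in aged-injury had just the 4 markers needed, against 6 of 84 in naive and 7 of 26 in exhausted. Their median depth was 17555 UMIs in aged-injury, 5141 in naive and 6217 in exhausted. Among cells with more than 4 markers, a split chosen after the values were seen, the members took 2.52% of UMIs in naive (78 cells), 2.57% in exhausted (19 cells) and 1.44% in aged-injury (44 cells). Aged-injury was thus lowest in this split too, while its summed markers were 18701 CPM there, against 35170 in naive and 40843 in exhausted. The part of these differences in the lower share was not tested.

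Granulocyte precursors were second. Of 82 members tested over 3 libraries, 66 rose and 2 fell, against 29.5% and 37.3% of all genes, with a median log2 fold change of 0.83 beside -0.17. All 17 members of complex V and all 8 of complex III rose. Cox5a had 258 CPM in naive, 276 in exhausted cells and 215 in control granulocyte precursors, against 56.1, 57.1 and 41.2 CPM in reticular cells, a log2 fold change of 1.99 ± 0.13 (edgeR adjusted p = 1.68e-06) with no overlap. Uqcrfs1, the Rieske iron-sulphur protein of complex III, rose by log2 1.69 ± 0.16 and Cox5b by 1.59 ± 0.13. Cox4i2 fell by 3.02 on the log2 scale, with 7 UMIs. Ndufa4l2 had 0 UMIs in all 3 libraries, against 6.23 CPM in reticular cells. Taking 3 UMIs over the group as the floor it was 7.92-fold lower, and the counting interval of its ratio ran from 0 to 0.156. In these cells 80 of 81 cytosolic ribosomal genes and 58 of 77 mitochondrial ribosomal genes rose as well, and 8 of 13 mitochondrially encoded genes fell. The gate's median depth was 22011 UMIs, above the 6793 of reticular cells, and it also holds cells with basophil and mast cell genes.

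In the other blood classes the counts moved with the scaling, and in neutrophils the direction turned. The log2 TMM factor of the class minus that of reticular cells was -0.54 in neutrophils, 0.30 in granulocyte precursors, 0.47 in B-lineage and -0.64 in erythroid cells, and a factor above 0 lowers every fold change by that size while one below 0 raises it. These sums weight deep cells. By the median per cell, the members' share was lower in erythroid cells and neutrophils than in reticular cells of every library compared. Of 80 members tested in erythroid cells over 5 libraries, 57 rose and 5 fell (29.8% and 47.2% of all genes). Without the factors, a scaling added after seeing the data, 23 rose and 14 fell, beside 2538 and 7432 of all 12822 genes. In neutrophils over 4 libraries 38 of 80 rose and 14 fell (32.8% and 42.3%). Without the factors 12 rose and 36 fell, beside 3179 and 7375 of all 13612 genes. With the factors, the fallen neutrophil members numbered 7 without the naive library, 8 without control and 21 without exhausted. In B-lineage cells over 5 libraries 29 of 82 rose and 12 fell (33.8% and 40.5%). Without the factors 63 rose and 4 fell, beside 6193 and 4282 of all 13419 genes. With the factors the members' median lay above that of all genes, at 0.77 beside -0.57 in erythroid cells, 0.28 beside -0.28 in neutrophils and 0.17 beside -0.11 in B-lineage cells. Without them these medians were 0.13 beside -1.21, -0.27 beside -0.83 and 0.62 beside 0.33 in the same order. The factors shift all genes of a class alike, so this gap could hardly change and the second scaling adds no support.

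**Figure D4:**
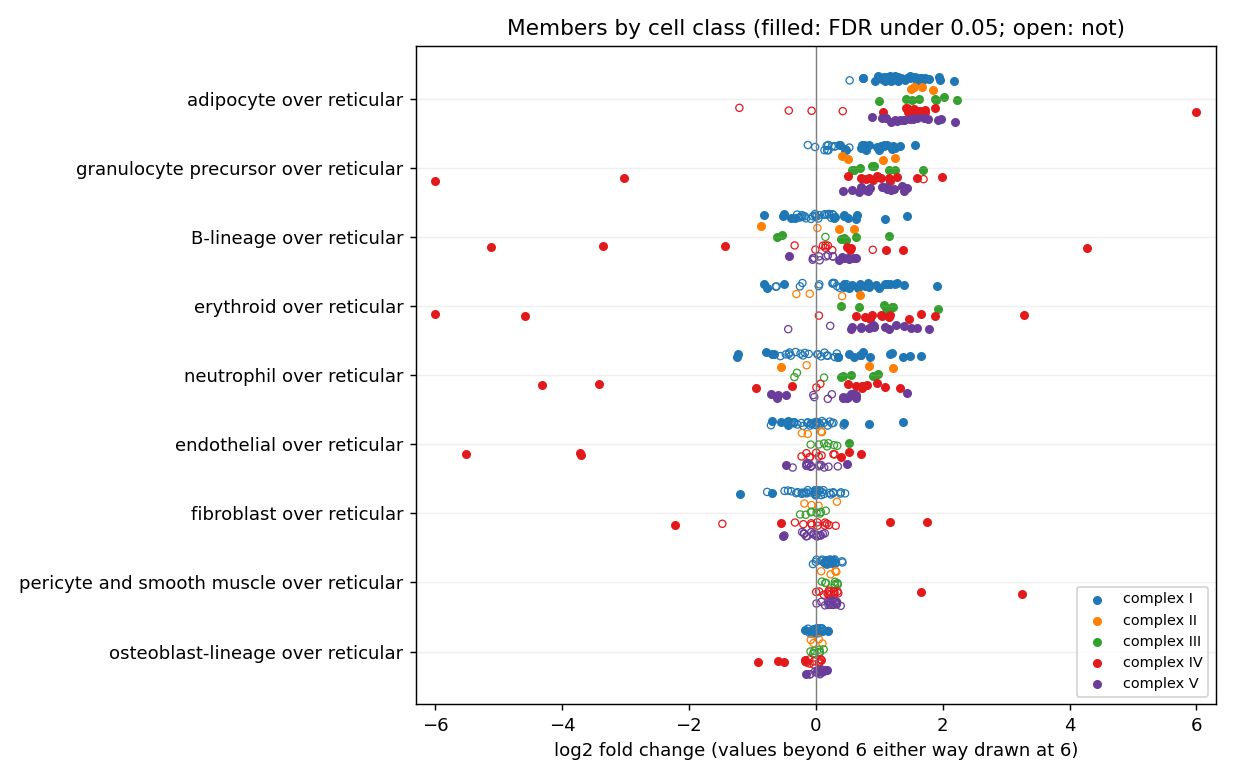
Each point is 1 member as its edgeR log2 fold change (horizontal axis) in a cell class over reticular cells of the same libraries, coloured by complex and filled where the FDR is under 0.05; values beyond 6 are drawn at 6. The adipocyte row lies almost wholly to the right of 0, the osteoblast-lineage and pericyte rows lie close to it, and the points far to the left or right in most rows are the complex IV isoforms.

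In erythroid cells complex IV stood out from complex I. The summed CPM of complex IV was 1.40 times that of complex I in naive, 1.26 in exhausted cells, 1.25 in aged-injury, 1.48 in aged and 1.44 in control erythroid cells, against 0.864 to 0.910 in reticular cells. Cox6b2 rose by log2 3.28 ± 0.26 (edgeR adjusted p = 2.14e-07), at 91.6 CPM in naive, 110 in exhausted cells, 134 in aged-injury, 58.2 in aged and 78.7 in control erythroid cells, against 10.5 to 22.4 CPM in reticular cells. Uqcrfs1 and the complex I subunit Ndufb9 followed, at 1.92 ± 0.15 and 1.91 ± 0.14. The complex I subunit Ndufs4 fell by 0.81 on the log2 scale. Cox4i2 also fell, with 3 UMIs over the 5 libraries and a ratio of CPM of 0.0260 (counting interval 0.00536 to 0.0762). Ndufa4l2 had 0 UMIs in all 5 libraries, against 8.59 CPM in reticular cells. By the same floor it was 28.4-fold lower, and the counting interval of its ratio ran from 0 to 0.0433. The ATP synthase inhibitor Atpif1, outside the set because of its symbol, rose by log2 4.69 ± 0.24, and all of these values include the TMM factors. Glycolysis went the other way in erythroid cells, where 12 of 15 genes fell and 2 rose.

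The erythroid share also differed between libraries. It was 0.708% in naive, 0.996% in exhausted cells, 1.03% in aged-injury, 0.506% in aged and 0.594% in control cells, a log2 ratio of 0.74 for exhausted over control (0.71 to 0.78) and 1.03 for aged-injury over aged (0.98 to 1.08). The median per cell, which does not weight deep cells, was 0.311% in naive, 0.374% in exhausted cells, 0.417% in aged-injury, 0.281% in aged and 0.280% in control. Reticular cells had higher medians per cell, at 0.525% in naive, 0.623% in exhausted cells, 0.568% in aged-injury, 0.579% in aged and 0.604% in control. The cytosolic ribosomal share of the same sums was 4.10% in naive, 6.13% in exhausted cells, 6.93% in aged-injury, 2.34% in aged and 3.39% in control, highest in the same 2 libraries, and its part in the result was not tested.

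In neutrophils the nuclear and the mitochondrial genomes parted. All 13 mitochondrially encoded genes fell, with a median log2 fold change of -1.96, and they took 1.67% of UMIs in naive, 2.38% in exhausted cells, 1.52% in aged and 2.00% in control neutrophils, against 6.78% to 8.60% in reticular cells of these libraries. Of the nuclear members the complex I subunits Ndufb7 and Ndufb1 rose by log2 1.66 ± 0.14 and 1.48 ± 0.13 and the stalk subunit Atp5pb of ATP synthase by 1.43 ± 0.13, while Ndufa5 fell by 1.24. Cox4i2 and Ndufa4l2 fell too, with 6 and 5 UMIs in neutrophils and ratios of CPM of 0.0303 (0.0111 to 0.0661) and 0.0597 (0.0193 to 0.140). Glycolysis rose in 10 of 15 genes and fell in 3. In B-lineage cells Cox7a2l had 327 CPM in naive, 362 in exhausted cells, 360 in aged-injury, 349 in aged and 331 in control cells, against 104, 102, 97.1, 91.5 and 86.7 CPM in reticular cells, with no overlap and a log2 fold change of 1.38 ± 0.12 (edgeR adjusted p = 1.03e-06). Ndufb1 rose there by 1.44 ± 0.11, and Cox6a2 by 4.28 ± 0.61, at 17.7 CPM in naive, 15.0 in exhausted cells, 0 in aged-injury, 27.2 in aged and 27.3 in control, against 0 to 1.74 CPM in reticular cells. The lowest there were Ndufa4l2, with 2 UMIs and a ratio of CPM of 0.0253 (0.00306 to 0.0916), and Cox4i2 and Cox6b2, which fell by 3.35 and 1.42 on the log2 scale, with 15 and 72 UMIs.

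In the remaining stromal and endothelial classes fewer members moved, and the largest changes were in complex IV isoforms. In osteoblast-lineage cells 3 of 81 rose and 6 fell over 5 libraries (15.4% and 17.6% of all genes). Those that rose were Ndufa12, Atp5e and Atp5g1, by log2 0.20, 0.18 and 0.15, and those that fell most were Ndufa4l2 by 0.90, Cox6b2 by 0.59 and Cox4i2 by 0.50, each lower in 5 of 5 libraries. Of the gated cells 94.5% also pass the reticular gate, and without the library block 0 were called in either direction. The risen count was 1 without aged-injury and 1 without control. In endothelial cells 8 of 80 rose and 9 fell over 3 libraries (21.1% and 24.3%), with the complex I subunits Ndufa8 and Ndufc2 and Cox7a2l highest at 1.37, 0.84 and 0.72. Cox6b2 fell by 3.71 on the log2 scale, with 4 UMIs in endothelial cells. Cox4i2 and Ndufa4l2 fell there with 1 and 3 UMIs, at ratios of CPM of 0.0259 (0.000654 to 0.144) and 0.0690 (0.0142 to 0.202). Without the TMM factors, whose log2 difference of 0.16 lowers every endothelial fold change by that size, 15 rose and 5 fell, beside 3452 and 2688 of all 13139 genes. Leaving out 1 library gave 4 risen and 5 fallen without naive, 5 and 5 without exhausted, and 3 risen without aged-injury. In fibroblast-gated cells 2 of 81 rose and 5 fell over 3 libraries (10.2% and 12.5%). Cox6b2 had 28.2 CPM in aged-injury, 44.9 in aged and 48.8 in control fibroblast-gated cells, against 10.5, 19.6 and 22.4 CPM in reticular cells. Ndufa4l2 rose by log2 1.75 ± 0.34, while Cox4i2 fell by 2.21, Ndufs4 by 1.19 and Ndufa3 by 0.69. In fibroblast-gated cells Cox4i2 had 6 UMIs, all in aged-injury, and Ndufs4 had 48 in aged-injury, 1 in aged and 23 in control. Leaving out a library left 1 fallen member without control, 3 without aged and 8 without aged-injury.

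In pericyte and smooth muscle gated cells 2 of 81 members rose and 0 fell over 5 libraries, against 2% and 3.8% of all genes, although 80 of 81 fold changes were above 0 and 45 had an unadjusted p under 0.05, as had 3549 of all 13697 genes. Of the 3010 cells of this gate 94.8% also pass the reticular gate, and 2176 had just the 4 markers needed. The 2 were Ndufa4l2, by log2 3.25 ± 0.47 (edgeR adjusted p = 0.0115), and Cox4i2, by 1.66 ± 0.31 (edgeR adjusted p = 0.0234), both higher in 5 of 5 libraries. Leaving out 1 library gave 0 to 9 calls, with 0 without exhausted, 9 without control and 1 without naive, aged-injury or aged. Ndufa4l2 had 167 CPM in naive, 118 in exhausted cells, 112 in aged-injury, 37.0 in aged and 15.5 CPM in control cells of this gate, against 4.99, 5.74, 11.8, 5.53 and 6.77 CPM in reticular cells. Cox4i2 had 74.1 CPM in naive, 58.3 in exhausted cells, 32.6 in aged-injury, 29.5 in aged and 21.0 in control cells of the gate. Both were highest in naive and lowest in control. The ratio of Ndufa4l2 was 10.8 for naive over control (9.04 to 12.9), 7.67 for exhausted over control (6.20 to 9.49) and 3.04 for aged-injury over aged (2.60 to 3.57).

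The makeup of that gate differed between the libraries. Rgs5, a defining pericyte gene, stood at 5594 CPM in naive, 5355 in exhausted cells, 2854 in aged-injury, 1372 in aged and 394 in control cells of the gate, and Cxcl12 at 15421, 28749, 14441, 38904 and 38484 CPM. Of the smooth muscle markers, Acta2 stood at 936 CPM in naive, 268 in exhausted cells, 1036 in aged-injury, 123 in aged and 43.0 in control cells. In the same order Tagln was at 516, 177, 558, 189 and 149 CPM and Myh11 at 333, 258, 139, 117 and 50.3 CPM. Cnn1 was at or under 3.46 CPM in all 5. Cells with more than the 4 markers needed, a split chosen after the values were seen, had 365 CPM of Ndufa4l2 in naive (109 cells), 364 in exhausted (51 cells), 200 in aged-injury (415 cells), 135 in aged (103 cells) and 39.1 in control (156 cells). Rgs5 in those cells was 13724 CPM in naive, 18320 in exhausted cells, 7893 in aged-injury, 5322 in aged and 1614 in control. Ndufa4, the ordinary counterpart of Ndufa4l2, was at 81.7, 136, 196, 123 and 149 CPM in the same cells of these libraries, lowest in naive. The members' summed share in the gate was 0.793% in naive cells, 0.815% in exhausted cells, 0.912% in aged-injury cells, 0.630% in aged and 0.637% in control cells. The part of the gate's makeup in these levels was not tested.

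Several complex IV isoforms were counted mainly in particular classes. Ndufa4l2 and Cox4i2 were highest in the pericyte gate and, with values only, in the 129 chondrocyte-gated cells of aged-injury, at 136 and 41.3 CPM. Cox6a2, the heart and skeletal muscle isoform, was highest in the monocyte gate, at 65.7 CPM over 4 libraries against 1.02 CPM in reticular cells, a ratio of 64.7 (51.5 to 81.9), and that gate also holds dendritic cell genes. Cox6b2 was highest in erythroid cells, at 96.9 CPM over the 5 libraries. It was also counted in others, with 35.8 CPM in fibroblast-gated cells, 28.3 in granulocyte precursors and 15.1 in reticular cells. Cox8b was found above 1 CPM only in the adipocyte gate among the classes with at least 20 cells. Cox7a1 was at or under 3.4 CPM and Cox7b2 and Cox8c under 1 CPM in every class. The ubiquitous partners Cox4i1, Cox6a1, Cox6b1 and Cox8a lay between 154 and 441, 207 and 566, 169 and 582 and 177 and 622 CPM over the classes. Cox7a2 lay between 58.8 and 157 CPM, Cox7b between 55.6 and 201 CPM and Ndufa4 between 85.2 and 459 CPM, and the highest class was the adipocyte gate for all of these but Cox7b, where it was granulocyte precursors. No test was made between these classes, only of each class against reticular cells where given above.

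**Figure D5:**
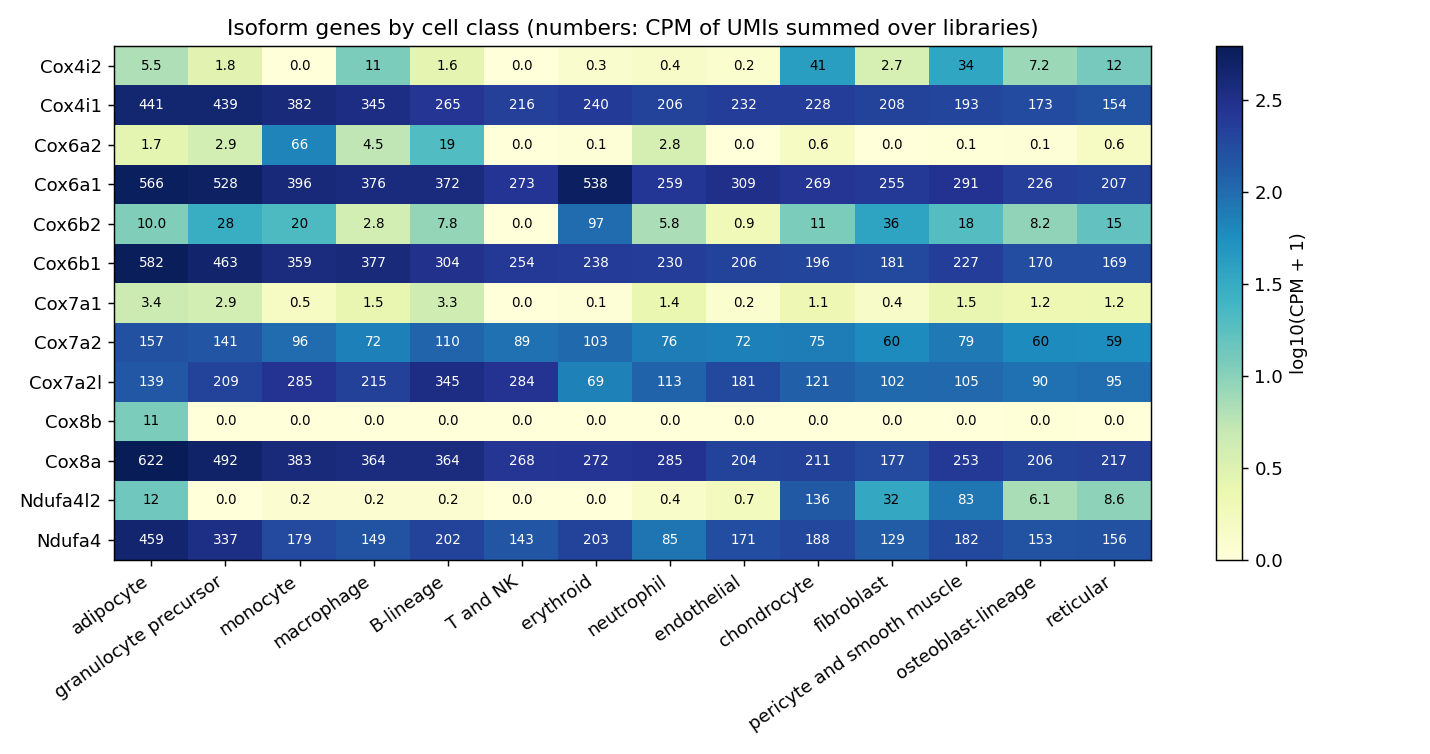
Complex IV isoform genes (rows) by cell class (columns), as CPM of UMIs summed over the libraries with at least 20 cells of the class (numbers; colour is log10(CPM + 1)). Ubiquitous isoforms such as Cox8a are counted in all classes, while Cox8b reaches 10.7 CPM in adipocyte-gated cells alone and Ndufa4l2 reaches 82.6 CPM in the pericyte gate and 136 CPM in chondrocyte-gated cells.

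Upstream sequences from RefSeq (build GRCm38.p6) were at hand for 69 of the 86 members, as the 250 bases before the gene's start. Cox8b was found above 1 CPM only in the adipocyte gate. Cox6b2 was highest in erythroid cells and was counted at lower levels in other classes, reticular cells among them. Their counterparts Cox8a and Cox6b1 were high in every class. The upstream sequences of these 2 pairs are shown, 5′ to 3′ on the gene's strand, with matches to the motifs named next in capitals:
Cox6b1, chr7:30626115-30626364, minus strand: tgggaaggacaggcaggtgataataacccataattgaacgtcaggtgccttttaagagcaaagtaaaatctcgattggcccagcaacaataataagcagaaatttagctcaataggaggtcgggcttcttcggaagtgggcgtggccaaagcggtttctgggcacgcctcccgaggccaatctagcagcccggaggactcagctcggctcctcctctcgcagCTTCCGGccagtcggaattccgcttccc
Cox6b2, chr7:4753095-4753344, minus strand: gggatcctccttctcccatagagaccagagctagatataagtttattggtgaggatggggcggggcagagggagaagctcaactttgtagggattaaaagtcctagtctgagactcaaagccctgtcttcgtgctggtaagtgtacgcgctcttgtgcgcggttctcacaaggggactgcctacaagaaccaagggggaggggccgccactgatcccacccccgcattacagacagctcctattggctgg
Cox8a, chr19:7217617-7217866, minus strand: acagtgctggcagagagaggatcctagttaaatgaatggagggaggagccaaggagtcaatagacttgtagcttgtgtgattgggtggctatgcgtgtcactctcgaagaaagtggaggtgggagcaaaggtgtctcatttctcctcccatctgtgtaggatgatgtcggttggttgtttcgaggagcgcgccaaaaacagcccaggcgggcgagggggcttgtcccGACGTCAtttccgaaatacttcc
Cox8b, chr7:140900447-140900696, minus strand: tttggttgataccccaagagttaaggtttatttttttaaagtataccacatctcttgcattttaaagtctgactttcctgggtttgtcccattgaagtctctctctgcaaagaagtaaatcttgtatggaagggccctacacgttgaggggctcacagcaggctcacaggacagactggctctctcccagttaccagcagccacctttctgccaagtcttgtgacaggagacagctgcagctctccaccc

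The letters GCATGCGC (core of the NRF1 motif), CCGGAAG (ETS core, bound by GABP among others), GATGGCG (YY1) and TGACGTC (most of the cyclic AMP response element) were searched on both strands. The NRF1 letters were found upstream of 8 of 69 members (11.6%) and of 3.34% of all 18808 genes with a sequence, the ETS letters of 12 (17.4%) and 10.1%, the YY1 letters of 2 (2.90%) and 2.99%, and the response element of 7 (10.1%) and 3.88%. In all, 25 members had at least 1 of the 4 and 44 had none. Cox6b1 held 1 ETS match and Cox8a 1 response element, and these letters were not in the windows of Cox6b2 and Cox8b. The windows also differed in their number of CG pairs, 14 for Cox6b1, 8 for Cox6b2, 11 for Cox8a and 1 for Cox8b. A match in these letters is a description and not a binding site.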

How the data were processed

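Counts of unique molecular identifiers (UMIs) per gene and cell were used as deposited by the authors, per the file headers. Seurat 5.1 and build GRCm39 stand in the submitters' processing notes; aligner, counting and cell calling were not given in the sources used here, so how reads shared with processed pseudogenes were counted is unknown. Library totals ran from 58895655 to 224155538 UMIs. Kept cells had 500 or more genes, 1000 or more UMIs and under 25% mitochondrial UMIs, and were gated by markers; a cell passing more than 1 gate was set aside as mixed (4827 cells), which served in place of a doublet caller, and the reticular gate gave way to the other stromal gates. UMIs were summed per library and class with at least 20 cells and given as CPM, not divided by length. Because each group is 1 library, libraries were compared by ratios with exact conditional binomial 95% intervals and a 1.5-fold threshold, without a p. Classes were compared with reticular cells in edgeR 4.0.16 (R 4.3.3), TMM scaling, library as a block, at least 3 libraries; the code was tested on simulated counts. Macrophages (2 libraries), monocytes, T and NK cells and chondrocytes were given as values only. DESeq2 1.42.0, other scalings, cell filters, gates and left-out libraries were alternatives. Named members were the 3 most counted per complex, all isoform pairs and Sdh genes, and the 3 highest and lowest per comparison, of which 1 is not reported here. Members, lists and rules were chosen with earlier results of these data known. Python 3.11.15 with scipy 1.17.1 was used; 0 columns of other samples were present.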

Additional observations from a re-analysis of the deposited data

Results flagged for a closer look

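A few values stood out in cell classes that no test of the report used, each at least 5 times the level in reticular cells summed over all 5 libraries. Ndufa4l2 was at 136 CPM in the 129 chondrocyte-gated cells of aged-injury, against 8.59 CPM in the reticular cells of all 5 and 11.8 CPM in those of aged-injury. Cox6a2 was at 65.7 CPM in monocyte-gated cells of 4 libraries, against 0.559 CPM in the reticular cells of all 5. Cox5a was at 243 CPM in macrophage-gated cells of 2 libraries, naive and exhausted, against 44.6 CPM in the reticular cells of all 5. In the reticular cells of naive and exhausted it was at 56.1 and 57.1 CPM, and against these the macrophage level is under 5 times. None of the 3 differences was tested.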

How the results depend on the processing

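No paired analysis was possible because, between groups, each group is 1 library and the labels carry no replicate numbers; classes were compared within library. The summed reticular log2 ratios of naive over control, exhausted over control, exhausted over naive, aged over control and aged-injury over aged were -0.15, 0.062, 0.21, 0.0048 and -0.011 with TMM factors, 0.081, 0.22, 0.14, -0.012 and 0.013 with cells under 10% mitochondrial UMIs, and -0.11, 0.065, 0.17, -0.070 and 0.10 with no mitochondrial limit. Over all filtered cells they were 0.15, 0.39, 0.23, -0.18 and 0.20. Without mitochondrial and ribosomal UMIs they were 0.054 for naive over control, 0.15 for exhausted over control, -0.028 for aged over control and 0.049 for aged-injury over aged. With marker gates at 2 UMIs they were -0.017 for naive over control, 0.062 for exhausted over control, 0.079 for exhausted over naive and 0.11 for aged-injury over aged, and in cells thinned to 2000 UMIs -0.092 for naive over control, 0.022 for exhausted over control, -0.076 for aged over control and 0.052 for aged-injury over aged. The exhausted library kept its direction over control and naive in all of these; the cause of the changed directions was not tested. Members past 1.5-fold numbered 3, 5, 2, 2 and 3 in the 5 comparisons without the level filter, 2 for exhausted over control and 1 for aged-injury over aged under 10%, and 1 (TMM) and 3 (2 UMIs) for aged-injury over aged. The members above and below in all ablated libraries were 8 and 8 with TMM, and 0 below under 10%. Fallen osteoblast-lineage members were 0 in the joint fit and without the block. Risen pericyte members were 8 in DESeq2, 5 without the low-count filter and 1 under 10%. Fallen fibroblast members were 2 in DESeq2, 3 in the joint fit, 1 without the block and 3 without TMM factors, and fallen endothelial members were 15 without the low-count filter, 5 without TMM factors and 15 with 2 UMIs. Risen members without TMM factors, a setting chosen after seeing the data, were 12 in neutrophils, 63 in B-lineage and 23 in erythroid cells, and without the low-count filter 24 in neutrophils and 12 in B-lineage cells. Leaving out 1 library gave 4 to 9 fallen osteoblast-lineage, 24 to 77 risen adipocyte, 0 to 9 risen pericyte, 1 to 8 fallen fibroblast, 5 to 7 fallen endothelial, 27 to 36 risen neutrophil, 53 to 68 risen granulocyte precursor, 22 to 30 risen B-lineage and 53 to 57 risen erythroid members. Few cells limit precision in some classes, with 26 exhausted adipocyte-gated cells. Risen endothelial members were 4 in DESeq2, 4 in the joint fit, 3 without the low-count filter and 4 with 2 UMIs, and risen osteoblast-lineage members 1 in DESeq2 and 0 under 10%. Fallen neutrophil members were 23 without the low-count filter and 22 both with 2 UMIs and under 10%, and fallen erythroid members 10 without that filter.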
